A study of Drosophila melanogaster with 43 samples.

Results

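The RNA libraries of Drosophila head extract held 8003 entries that had no gene name and were 150 bp long or shorter. They were taken from 8 libraries (replicates 1 to 4 of a pellet and of a supernatant), as every entry with an empty gene name whose end minus start was at most 150 bp, on the chromosome arms X, 2L, 2R, 3L, 3R and 4. They made up 8003 of the 75248 unnamed entries and of the 194529 entries of any kind in these libraries. A further 64225 unnamed entries were over 150 and under 1000 bp long, and 3020 were 1000 bp or longer. In what follows an entry of 150 bp or less is called a short locus.

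The series concerns Orb and Orb2, the CPEB proteins of the fly, which bind the 3′ ends of mRNAs and regulate their translation, Orb mainly in the germ line and Orb2 also in neurons, where it is needed for long-term memory. The head libraries came from flies of 1 genotype, Orb2 WT-GFP, grown on semi-defined medium at 25 °C, and both fractions carry that allele. Head extract was precipitated with b-isoxazole, and RNA was sequenced from the pellet and from the supernatant left behind. Each fraction had 4 libraries of named entries, and the labels do not say whether replicates came from separate flies, so the p-values here speak of variation among libraries that may be of technical origin. Of the neuronal, photoreceptor and glial markers looked up, nSyb had no entry under that symbol, and the others were present in all 8 libraries. Among them, elav read 14.1 to 21.3 FPKM in supernatants and 60.1 to 73.5 in pellets, ninaE at least 4927, and repo 1.48 to 10.4. Of testis genes, can was between 0 and 0.03 and bam between 0.252 and 1.55, while Mst98Ca read 4.86 to 11 and dj 31.1 to 57.9. Of ovary genes, the chorion genes Cp36 and Cp38 were between 0 and 4.82, and osk read 3.46 to 27.0.

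b-Isoxazole is a small molecule that forms microcrystals in cold extract and brings down proteins with disordered, low-complexity stretches, many of them components of RNA granules, along with RNA bound to them. Transcript assembly from short reads joins overlapping alignments into loci. Where alignments meet no annotated exon, the assembled locus stands by itself without a name, and in head tissue such loci can come from introns, from unannotated transcripts or from short runs of reads of any origin. FPKM, the unit of these entries, is the number of sequenced fragments per kilobase of transcript, scaled to the depth of the library. Programs that estimate it can use an effective length, from which the fragment size has been taken off, and the setting used here is not given in the sources used here.

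The number of short loci differed between libraries far more than between fractions. Supernatants 1 to 4 held 628, 410, 327 and 3174 short loci, and pellets 1 to 4 held 899, 171, 1073 and 1321. Supernatant 4 was the highest of all and pellet 2 the lowest, and the ranges of the fractions overlapped. The means were 1135 ± 1365 (SD, n = 4) in supernatants and 866 ± 495 (n = 4) in pellets, and a two-sided exact permutation test of the difference gave p = 0.914. As a share of the unnamed loci, short loci ran from 2.74% in pellet 2 to 28.2% in supernatant 4.

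The shortest locus was 98 bp long, and 1 length stood out. Of the 8003 short loci, 2602 (32.5%) were exactly 100 bp long, 34 were shorter, and 5367 were 101 to 150 bp. Supernatant 4 alone held 1647 of those at 100 bp, 51.9% of its short loci. The others held 125, 108 and 0 in supernatants 1 to 3 and 276, 1, 78 and 367 in pellets 1 to 4. Supernatant 3 and pellet 2 thus had almost none, and the pile at 100 bp occurred in both fractions. Without it, the mean number of short loci in pellets minus that in supernatants was 20.8 in place of -269 (exact permutation p = 1).

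**Figure D1:**
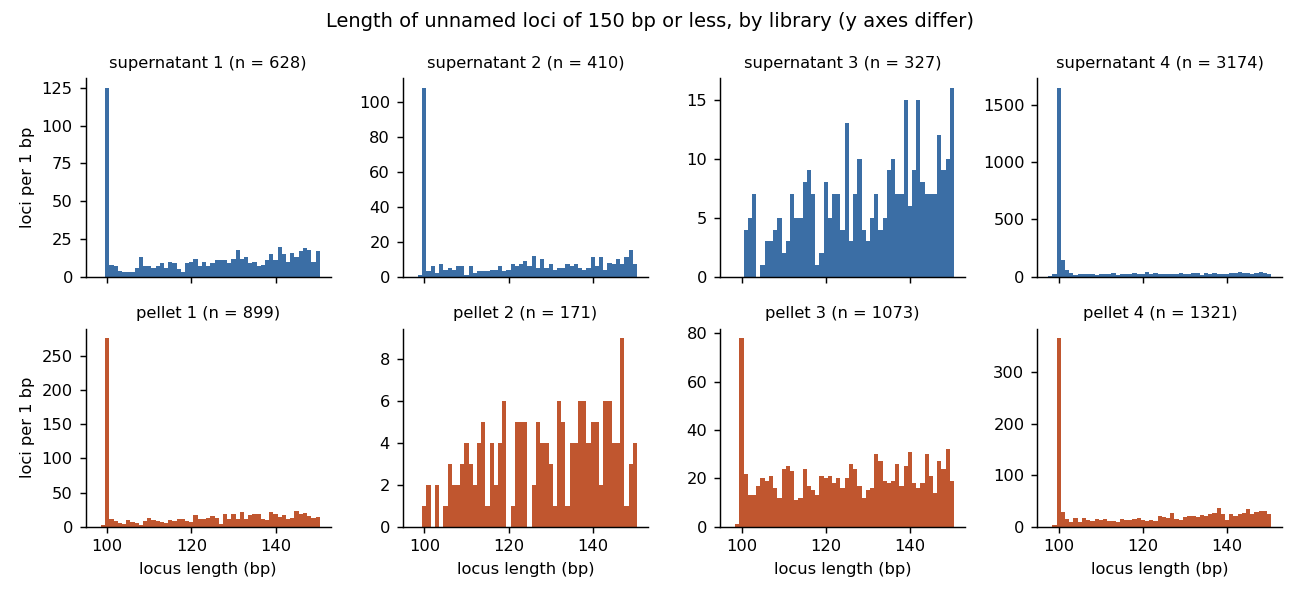
Length of each short locus (x axis, bp, in steps of 1 bp) against the number of loci of that length (y axis, a scale of its own in each panel) for the 4 supernatants (blue) and 4 pellets (red). A single bar at 100 bp stands above every other length in 6 of the 8 libraries, and supernatant 3 and pellet 2 have 0 and 1 locus there.

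At 100 bp the FPKM values were not continuous. In each of the 6 libraries with more than 1 such locus, the values were whole multiples of a single step: 2572 of 2601 (98.9%) lay within 0.01 of a whole number of steps. The lowest value was 10 steps in all 6 libraries. A step was worth 626 FPKM in supernatant 1, 1145 in supernatant 2, 752 in supernatant 4, 1269 in pellet 1, 1871 in pellet 3 and 2908 in pellet 4. The median locus at 100 bp stood at 11 to 15 steps, and the lowest value seen there ranged from 6261 FPKM in supernatant 1 to 29085 FPKM in pellet 4.

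The files give no read counts, but the deposited confidence interval of each entry carries its own. Where the upper bound is read as the value plus 2 standard errors of a Poisson count, it implies a number of fragments, and at 100 bp this number divided by the number of steps had a median of 0.992 to 1 in the 6 libraries. By this measure the short loci rested on a median of 13 fragments, and 80.4% of them on 20 or fewer. The library medians were 11.9 in 6 of 8 libraries, 13 in supernatant 3 and 16 in supernatant 4. Entries with any gene name and an FPKM above 0 rested on a median of 215. Of the short loci, 15 had a lower bound of 0. The implied number fell as low as 0.0203 in supernatant 4 and 0.00187 in pellet 1. Such intervals are wider than a count of whole fragments can give, so the reading as fragments fails at such loci. Elsewhere the interval was taken as counting error only.

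Within each library, FPKM followed the length of the locus far more closely than its fragments. Spearman's rho of FPKM with length was between -0.896 and -0.964 across the short loci of a library, while that of FPKM with fragments was between 0.044 and 0.442, and that of fragments with length between -0.136 and 0.176. These are descriptions over 171 to 3174 loci that share a library. In pellet 1, loci at 100 bp had a median of 16501 FPKM on 12.9 fragments, and loci of 141 to 150 bp had 65.2 FPKM on 11.9 fragments. The fragments were nearly the same at both ends of the range of lengths, and the FPKM values lay more than 100-fold apart. Across the limit that defines the loci the values were alike: 269 loci of 149 to 150 bp had a median of 70.6 FPKM, and the next 300 unnamed loci, up to 152 bp, had 64.4.

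**Figure D2:**
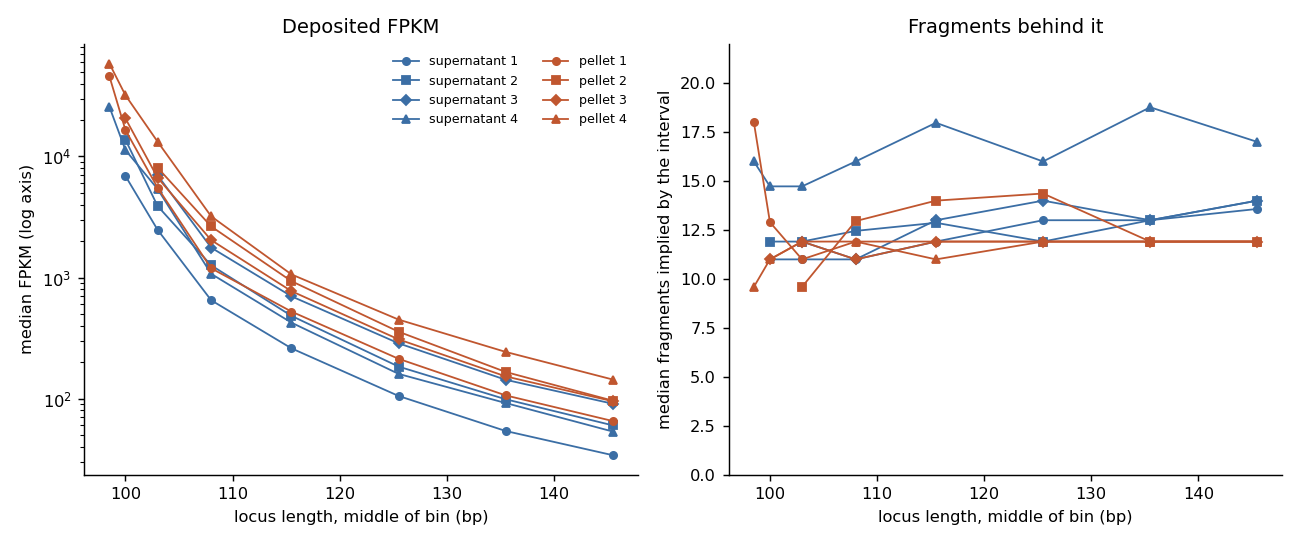
Median FPKM (left, log axis) and median number of fragments implied by the deposited interval (right) of short loci in bins of length (x axis, bp), for each supernatant (blue) and pellet (red); bins with fewer than 2 loci are left out. FPKM falls steeply with length in every library, from 16501 at 100 bp to 65.2 at 141 to 150 bp in pellet 1, while the fragments stay nearly level.

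Short loci held much of the summed FPKM of most libraries. Short loci took 61.7%, 71.5%, 25.2% and 96.5% of the sum over all entries in supernatants 1 to 4, and 83.1%, 12.7%, 73.6% and 92.3% in pellets 1 to 4. The lowest shares belonged to supernatant 3 and pellet 2, the libraries with 0 and 1 locus at 100 bp. In supernatant 4, loci of exactly 100 bp alone took 84.4% of the sum, and in pellet 4 they took 79.9%. FPKM is scaled by length, so these are not shares of reads.

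The levels of short loci were then compared between the fractions, library by library, which asks whether RNA at these loci was found with the b-isoxazole precipitate. The median FPKM was 114, 247, 208 and 7519 in supernatants 1 to 4 and 361, 271, 316 and 688 in pellets 1 to 4. Supernatant 4, in which most short loci were 100 bp long, stood far above the others, and the other supernatants lay below all 4 pellets. The log2 median was 8.84 ± 2.73 (SD, n = 4) in supernatants and 8.58 ± 0.59 in pellets, and the exact permutation test gave p = 1; leaving out supernatant 4, the supernatant mean was 7.49 and p = 0.0571.

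To set length aside, the comparison was repeated on loci of 141 to 150 bp. Their median was 34.1, 60.1, 90.7 and 53.4 FPKM in supernatants and 65.2, 96.1, 95.1 and 144 FPKM in pellets. Each pellet was above the supernatant of its own number, and the ranges overlapped (log2 difference 0.78, exact permutation p = 0.0571, 0.400 after Benjamini-Hochberg adjustment over 14 measures). FPKM of named genes was also higher in pellets: the factors that bring the libraries to a common level over named genes were 0.654 to 0.736 in supernatants and 1.28 to 1.65 in pellets. After division by these factors the difference was -0.24 on the log2 scale (p = 0.543), with 1 of 4 pellets above its supernatant. A rise of short loci in pellets beyond that of named genes was therefore not found at this number of libraries. Libraries of whole head extract cannot tell fewer cells of a type from less RNA per cell.

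**Figure D3:**
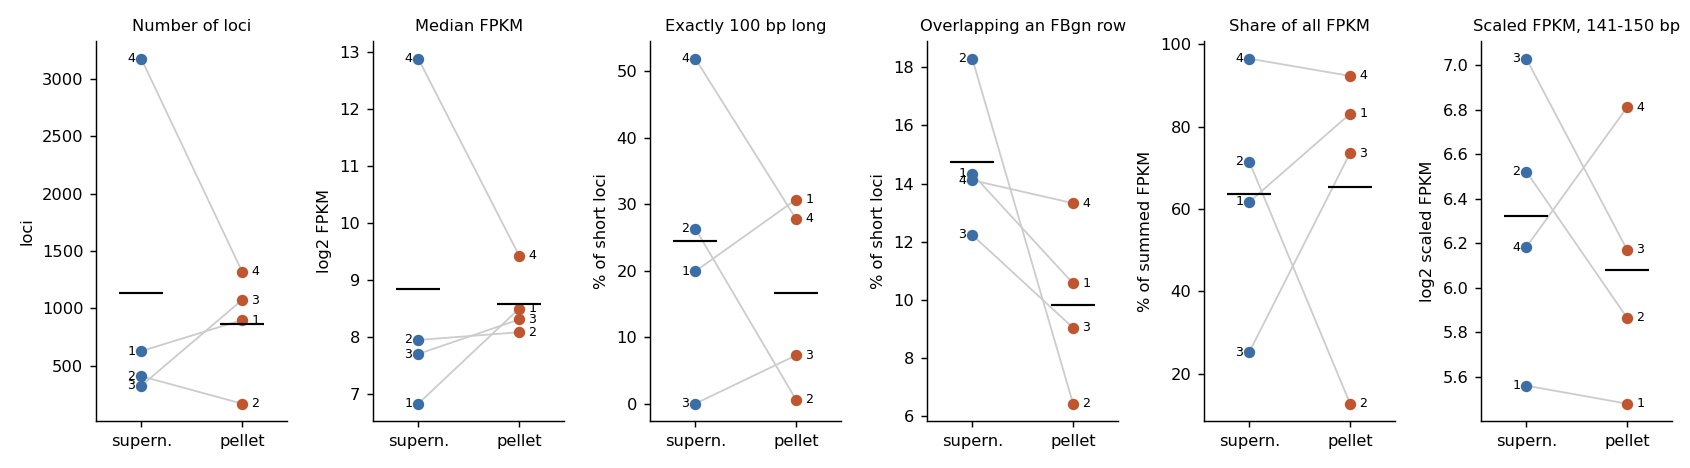
Values of 6 measures of the short loci in supernatants (blue) and pellets (red), each point a library numbered by its replicate, with a line joining equal numbers and a black bar at the mean of 4. The points of both fractions overlap in every panel, and supernatant 4 is highest in number (3174 loci) and median FPKM (7519).

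In all, 14 such measures were compared and 0 of 14 passed, before or after Benjamini-Hochberg adjustment. The smallest p that 4 libraries against 4 can give by the exact test is 0.0286. At that floor a single measure could not have passed after adjustment over the 14 measures. The lengths, the share at 100 bp, the fragments, the share on X, the share within a named entry and the ratio of a locus to the named entry around it were among them. That ratio was taken within each library over short loci that lay in an entry with a gene name. Its median was 4.51, 5.88, 5.30 and 8.73 on the log2 scale in supernatants and 4.67, 3.43, 4.27 and 5.89 in pellets. In every library the short loci were thus listed well above the genes that contain them, per length, on the fragments described above. The fractions did not differ beyond their spread (-1.54, exact permutation p = 0.229).

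Short loci rarely came back at the same place. Loci of the 8 libraries that overlapped by at least 1 bp were joined, giving 7362 regions. Of these, 6866 (93.3%) had a short locus in 1 library, 400 in 2, 63 in 3, 21 in 4, 8 in 5, 4 in 6, and 0 in 7 or 8. Of the 496 regions in 2 or more libraries, 300 had a short locus in both fractions. Of the 400 in 2 libraries, 217 were in a pellet and a supernatant, 106 in supernatants and 77 in pellets. Equal ends were rarer still, since 17 places had a locus of the same start and end in 2 libraries.

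Recurrence went with length and with fragments. Of the loci at 100 bp, 4.77% overlapped a short locus of another library, against 18.8% of those of 101 to 150 bp. These shares pool the libraries. Supernatant 4 gave 1647 of the 2602 loci at 100 bp, so length and library were not told apart. The median number of fragments was 13 for loci seen in 1 library, 14 for 2, 18 for 3 and 26.9 for 4 or more. By library, 21.8%, 23.2%, 28.7% and 8.63% of the short loci of supernatants 1 to 4 recurred, and 16%, 52.6%, 13.3% and 12.1% of those of pellets 1 to 4. The smallest set, pellet 2, had the highest share and the largest, supernatant 4, the lowest.

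More of the places were covered in other libraries by something longer. An unnamed locus of any length lay over 56.4% of the short loci (4514) in at least 1 of the 7 other libraries, and over 2.57% (206) in all 7. Seen pair by pair, another library had a short locus at 0.890% to 17.0% of the places, a longer unnamed locus and no short one at 3.45% to 50%, a named entry only at 24.6% to 64.4%, and nothing at 10.5% to 37.2%. Replicates 5 and 6 of both fractions were deposited as loci without gene names. They had a locus at 47.9% of the places, but a short one at 0.600% (48 loci). These 4 libraries held 50, 32, 40 and 98 short loci in supernatants 5 and 6 and pellets 5 and 6, none of them at 100 bp.

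FPKM also went with length at 1 place across libraries. In 478 regions with loci of unequal length in several libraries, the shortest locus had a higher FPKM than the longest in 406 (84.9%). The region on X at chr X:5070960-5071110 (build dm3), inside the joined entry of CG15464, CG15465 and rg, shows this in single values; rg encodes an anchoring protein for protein kinase A. It is 1 of the 21 regions with a short locus in 4 libraries. Among replicates 1 to 4 it had a short locus in all 4 pellets and in no supernatant. In replicates 5 and 6, all 4 libraries, supernatants included, had a locus of some length at the place. Pellets 1 to 4 read 26656, 2954, 4097 and 564 FPKM at lengths of 100, 110, 110 and 150 bp. The fragments behind them were 21, 23.7, 34.2 and 57.3. The pellet with the highest FPKM thus had the fewest fragments, and the lowest FPKM the most.

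Regions in 5 or 6 libraries numbered 12, and these were named after their values were seen. They lay in SPR, which encodes the sex peptide receptor, tou, Pka-R2, a regulatory subunit of protein kinase A, KCNQ, a potassium channel, CrebA, a bZIP transcription factor, mamo, CG13163, CG7971 and CG34031, and in the neighbourhood of CG43050, CG30373 and CG31619. The region in SPR, at chr X:5378936-5379049, had the highest values. It read 3363 FPKM in supernatant 2 and 3530 in supernatant 4, and 17435, 9562, 42426 and 4551 in pellets 1 to 4, with no short locus in supernatants 1 and 3. As deposited, all 4 pellets were above both supernatants. Divided by the factors of named genes, pellet 4 read 3555, below the supernatants at 5142 and 4800, and the other pellets read 11924, 5800 and 32139. Its lengths were 104 to 111 bp, and the fragments ran from 14 in supernatant 2 to 308 in pellet 3.

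The region in CrebA, at chr 3L:15536446-15536567, read 419 and 945 FPKM in supernatants 1 and 2 and 2325, 3087 and 5148 in pellets 1 to 3. Its pellets were above its supernatants, also after scaling (580 and 1446 against 1590, 1873 and 3899). Its lengths were 111 to 121 bp, on 22.8 to 101 fragments. Of the 12 regions in 5 or 6 libraries it was the only one whose scaled fractions did not overlap. In KCNQ, for example, supernatants 2 and 3 read 1167 and 533 after scaling, and pellets 1, 3 and 4 read 201, 817 and 937. Near CG43050, at chr 2L:13118895-13119055, supernatants 1 to 3 read 119, 132 and 205 FPKM and pellets 1 to 3 read 129, 276 and 96.3. There the fractions overlapped fully as deposited. After scaling, the supernatants read 165, 202 and 295 and the pellets 88.2, 168 and 72.9, and the log2 difference of -1.06 (SE 0.39) had an unadjusted p of 0.0348 and an adjusted p of 0.310 in the limma fit described next. A region 40088 bp from its nearest named entry, CG14621, at chr X:21806343-21806461, had short loci in the 4 pellets only, at 3049, 1692, 3852 and 3712 FPKM on 73.1, 39.5, 86 and 34.2 fragments. It too is 1 of the 21 regions found in 4 libraries, and 0 libraries of replicates 5 and 6 had a locus there.

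**Figure D4:**
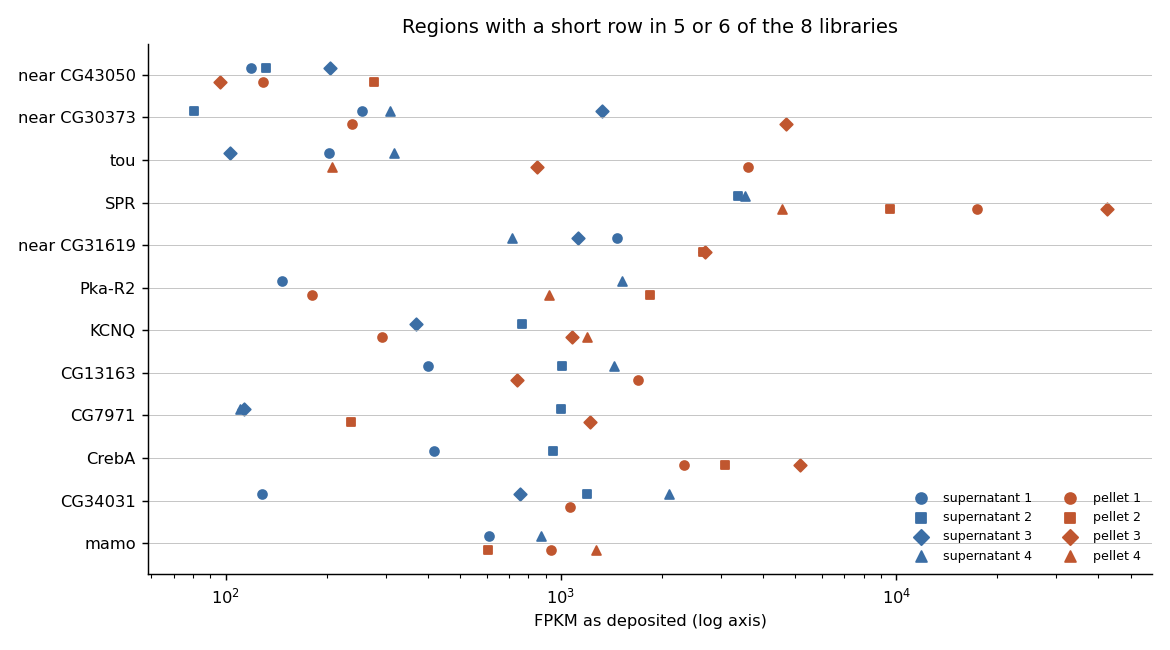
FPKM as deposited (x axis, log) in each library with a short locus, for the 12 regions found in 5 or 6 libraries, supernatants in blue above the line and pellets in red below it, the marker shape giving the replicate. As deposited, the pellets of SPR and CrebA lie to the right of their supernatants (after scaling pellet 4 of SPR does not), and near CG43050, from 96.3 to 276 FPKM, the fractions mix.

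Whether any region differed between pellet and supernatant was tested with limma on log2(scaled FPKM + 0.5), fitted over all named features and unnamed regions. Among features with a value in all 8 libraries, 246 of 10156 were called at an adjusted p under 0.05 (2.42% of those tested, 121 higher and 125 lower in pellets). With the replicate number as a block this became 638. Without supernatant 1, 2 or 4 it was 79, 90 or 88, and without pellet 1 or 3 it was 132 or 160. No short region was among the 10156, since none had a value in all 8 libraries. With at least 3 libraries of each fraction, 2 short regions entered and 0 were called, against 1.86% of all 11490 tested. In a fit added after the data were seen, with at least 2 of each fraction, 22 short regions entered. Of these 10 had a higher fitted value in pellets and 0 were called, against 0.892% of all 14119. An unadjusted limma p under 0.05 was reached by 3 of the 22 and by 2080 of the 14119. The median log2 difference was -0.10 over the 22 and -0.04 over all tested. With the replicate block 0 of the 22 were called as well, against 0.921% of all tested. The fit listed 13 as higher in pellets, with a median of 0.34, but these values give no direction. The region in CG42663 had values in supernatants 1 and 4 and pellets 2 and 3, and that in CG43658 in supernatants 1 and 3 and pellets 2 and 4. Where the fractions share no replicate number, the block cannot separate number from fraction. A region had to have been assembled in both fractions to enter, so regions seen in 1 fraction are outside this test.

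The smallest adjusted p among the 22 was 0.145, for a region in CG42313 at chr 2L:14920643-14920796. It read 4185 and 1228 FPKM in supernatants 2 and 4 and 73.6 and 188 FPKM in pellets 2 and 3. Both supernatants were above both pellets (log2 difference -5.35, SE 0.92). The loci were 103 and 118 bp long in the supernatants and 147 and 148 bp in the pellets, and they rested on 13, 67, 9.59 and 28 fragments in that order. The region in CrebA had a log2 difference of 1.31 (SE 0.57, limma adjusted p = 0.382) and that in SPR 0.92 (SE 0.85, adjusted p = 0.655). On the values as deposited, where all features tested had a median of 0.87 on the log2 scale, 19 of the 22 were higher in pellets with a median of 0.97, and 4 of 22 were called, against 28.6% of all 14241 tested.

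The position of short loci was read against named entries. An entry with a FlyBase identifier (FBgn), which stands for an annotated gene, overlapped 14.3%, 18.3%, 12.2% and 14.1% of the short loci of supernatants 1 to 4, and 10.6%, 6.43%, 9.04% and 13.3% of those of pellets 1 to 4. Each pellet was below the supernatant of its own number, but the ranges overlapped, and the difference of -4.90 percentage points did not pass (exact permutation p = 0.0571, 0.400 adjusted over 14 measures). Without pellet 4 it was -6.06 points, with an unadjusted exact permutation p of 0.0286, the smallest that 4 against 3 can give. The FBgn entries of the same libraries covered 18.7% to 26.2% of the arms, so fewer short loci lay in them than their length would take up. That cover includes annotated exons, where a locus takes a name, and they were not taken off. The FBgn entries also covered more of the arms in supernatants than in pellets, in 4 of 4 pairs by number, and the part of this in the difference was not tested. A library held 9196 to 10290 FBgn entries and a further 4692 to 5661 entries named for a gene but numbered by the assembly. With the latter included, 59.9% to 73.7% of the short loci lay in a named entry, where such entries covered 69.3% to 69.6% of the arms.

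Short loci were set against longer unnamed loci of the same library. FBgn entries overlapped 12.3% of short loci and 7.40% of loci of 1000 bp or more, on average over the libraries, and the share was higher for short loci in 8 of 8 libraries (two-sided exact sign-flip permutation p = 0.0078, the smallest 8 libraries can give). With pellet and supernatant of a number averaged, p was 0.125, the smallest that 4 can give. With any named entry the direction turned: 67.5% of short and 76.2% of long loci lay in one (-8.72 points, exact permutation p = 0.0938). Against loci over 150 and under 1000 bp, short loci were in a named entry less often in 8 of 8 libraries (-4.96 points, exact permutation p = 0.0078, averaged 0.125), and in an FBgn entry about as often (0.49 points, p = 0.398).

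By arm, X and 4 had the densest short loci. X held 2004 short loci, or 89.4 per Mb up to the last position listed, and chromosome 4 held 126, or 95.2 per Mb. The arms 2L, 2R, 3L and 3R had 58.2 to 65.0 per Mb. Longer unnamed loci were denser on both too, at 873 per Mb on X and 684 on chromosome 4. On 2L, 2R, 3L and 3R they stood at 451 to 514 per Mb. On X the longer loci were favoured more: 26.3% of short loci and 35.4% of loci of 1000 bp or more were there, the mean over libraries. The share of short loci on X was lower in 7 of 8 (exact permutation p = 0.0156, averaged by number 0.125).

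Of the 7362 regions, 4872 (66.2%) lay in a named feature, a feature being a gene or the genes joined in any library. Of 14164 features on the arms, 1778 (12.6%) held at least 1 short region. The span of the feature went with this. Features with a short region had a median span of 19.4 kb and those without 1.73 kb. Among features under 2 kb, 0.385% held one, and among those of 100 kb or more, 98.5% did. Per 100 kb the density rose from 0.384 under 2 kb through 2.39 and 6.64 to 8.39 at 50 to 100 kb and 8.58 above. Long genes thus held more short regions also for their span. The span counts exons, while an unnamed locus stands where alignments meet no annotated exon. The definition of the loci thus enters this rise, and the span free of exons was not measured.

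**Figure D5:**
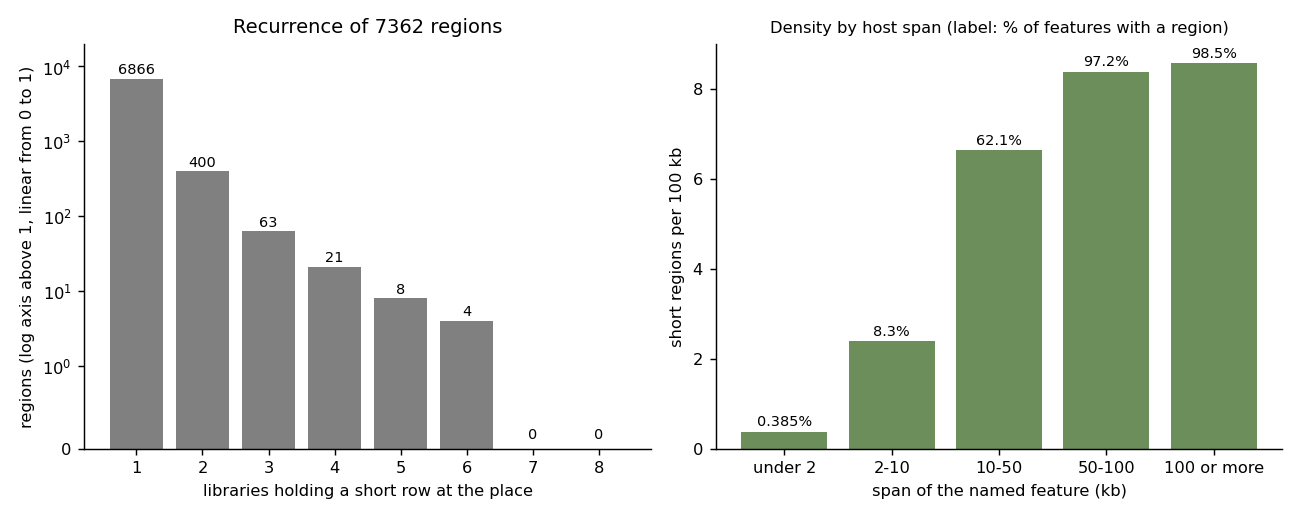
Left, number of regions (y axis, log above 1) by the number of libraries with a short locus there (x axis), falling from 6866 in 1 library to 4 in 6 and 0 in 7 or 8. Right, short regions per 100 kb of named feature (y axis) by the span of the feature (x axis, kb), rising from 0.384 under 2 kb to 8.58 at 100 kb or more, with the share of features that hold any written above each bar.

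The 10 features with the most regions were long genes, several of which act in neurons. The kirre feature, whose product is a cell adhesion protein of the immunoglobulin family, held 37 regions over 394 kb. Ten-a, a teneurin that matches synaptic partners, held 31 over 206 kb. The feature of CG15464, CG15465 and rg held 25, that of SKIP and CR43697 held 24, and mamo, a zinc finger protein, and mbl, the splicing regulator muscleblind, held 23 each. The others were bru-3, an RNA-binding protein of the Bruno family, with 22, CG32773 and CG43658 with 21 each and hth, a homeodomain protein, with 20, a number also reached by mgl. In these 10, which were picked for their number of regions, the density was 7.81 to 20.1 regions per 100 kb. All 10 spanned over 100 kb, and features of 100 kb or more had 8.58, against 5.60 over all features. Counted over FBgn entries alone, N, the Notch receptor, led with 11 regions, followed by CG40470 and Neto, an auxiliary subunit of glutamate receptors, with 9 each.

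The lists of genes differed in how many of their features held a short region, and also in span. Over all features 12.6% held one, at 5.60 regions per 100 kb. Among features of 2 to 10 kb 8.30% did, at 2.39 per 100 kb. At 10 to 50 kb 62.1% did, at 6.64 per 100 kb. Whether the lists differed beyond their spans was not tested. Of the ion channel list, 11 of 15 features held 74 regions, or 10.0 per 100 kb, at a median span of 49.2 kb; the potassium channel genes eag, Sh (joined with CG12672) and SK held 13, 12 and 12. Of the synaptic vesicle and active zone list, 11 of 13 features held 39 regions (6.59 per 100 kb, median span 28.3 kb), led by Snap25, a SNARE protein, with 12, the joined feature of cac and pot with 8 and brp, a scaffold of the active zone, with 5. Of the phototransduction list, 4 of 17 held 27 (9.69 per 100 kb, median span 3.43 kb), of which 17 were in the joined feature of rdgA, a diacylglycerol kinase, 7 in norpA, a phospholipase C, and 2 in trpl, a cation channel. Of genes of RNA granules and translational control, 8 of 19 held 50 (7.43 per 100 kb, median span 10.8 kb), with 22 in bru-3, 18 in pum and 4 in brat, the last 2 of which repress translation. Of the sarcomere list, 7 of 15 held 23 (7.07 per 100 kb, median span 11.3 kb), led by Zasp52, a protein of the Z-disc, with 7, up, a troponin T, with 4 and the joined feature of flw and CG17841 with 3.

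Among features of small RNAs, histones and ribosomal proteins, with median spans of 0.073 to 1.25 kb, few held a short region. Exons were counted in these spans too, so the room left for an unnamed locus is not known. Of 90 ribosomal protein features, 4 held 1 region each. Histones (122 features), small nuclear RNAs (31), ribosomal RNAs (78) and the signal recognition particle RNA (2) held 0. Of 295 transfer RNA features, 1 held 2 regions, where the RNA was joined with Esyt2. Of 300 small nucleolar and Cajal body RNA features, 11 held 38 regions, led by the joined feature of Dys, the fly dystrophin, with 11. Of 231 microRNA features, 21 held 60, led by trol, the fly perlecan, with mir-4955, at 11. The leading small RNA features were thus joined with a longer gene. Per 100 kb, the density was 7.43 for microRNAs and 4.86 for small nucleolar and Cajal body RNAs. It was 2.66 for transfer RNAs and 2.01 for ribosomal proteins, against 5.60 over all features.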

How the data were processed

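RNA of the pellet and supernatant of b-isoxazole precipitation of fly heads was analysed here (8 libraries, and 4 of replicates 5 and 6 for position alone). The S2 cell and crosslinking samples of the 43 in the series were not analysed here. The authors deposited FPKM per entry with a confidence interval and a locus. Per the submitters' processing notes, CASAVA 1.9.1, TopHat and Cufflinks were used with build dm3; their settings are not given in the sources used here. Starts were raised by 1 to count from 1.

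Libraries were scaled by the median ratio to the geometric mean over named features. Loci were joined across libraries at an overlap of 1 bp. The test across features, at a minimum scaled mean of 1, was made in limma 3.58.1 (R 4.3.3) on log2(scaled FPKM + 0.5) with a variance trend, and p-values were adjusted by Benjamini-Hochberg over the whole table. Such fold changes understate the change of low values. Per-library measures were compared by two-sided exact permutation tests. Scripts were tested on simulated data. The remaining steps used numpy 2.4.6, pandas 2.3.3 and matplotlib 3.10.9 under Python 3.11.15.

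Deviations of same-numbered libraries from their fraction means correlated at 0.168, 0.124, 0.283 and 0.186 for replicates 1 to 4, all over 0.1. Replicate 2 correlated more with another number (0.152). By the limit of 0.1 the numbers were taken to pair pellet with supernatant, from the data and not from the labels. The exact permutation tests of pellet against supernatant and the main limma fit did not use this pairing. It entered only as the replicate block, an alternative. The loci, gene lists and tests were chosen with earlier results of these data known. The rule for names took the 10 most abundant regions in all 8 libraries and called short regions, of which there were none, the 10 features with the most regions, and up to 3 per list. Alternatives were other limits of length, pseudocounts, filters, scalings, overlaps and libraries left out. Depth is known only through the interval, and precision is limited accordingly.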

Additional observations from a re-analysis of the deposited data

Results flagged for a closer look

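Among 35 groups of 4 libraries examined, 3 had 1 library far from the other 3, where chance alone marks about 1 in 20. The number of short loci in supernatant 4 was 3174, and the nearest supernatant held 628. The share of short loci found in 2 or more libraries was 52.6% in pellet 2, and the nearest pellet had 16%. In the region inside the joined feature of CG15464, CG15465 and rg, pellet 1 read 26656 FPKM, and the nearest pellet 4097, with 21 fragments behind the first and 34.2 behind the second.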

How the results depend on the processing

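Values here are pellet minus supernatant unless said otherwise. Without loci of exactly 100 bp, an alternative chosen after seeing the data, the number of short loci differed by 20.8 and the log2 median FPKM by 0.76; the median implied fragments differed by -1.84, with an unadjusted exact permutation p of 0.0286 where it had been 0.429. With a limit of 200 bp the log2 median FPKM differed by 0.21, and the share recurring in all 8 libraries by 0.0042 points. With a limit of 100 bp the share of summed FPKM differed by -1.04 points. Within 500 bp of a named entry in place of overlap, the share near an FBgn entry differed by -4.34 points, with an exact permutation p of 0.0286, the smallest that 4 against 4 can give. Short against long loci, the share in an FBgn entry differed by 4.89 points, by -8.72 points with all gene names (turned), and by 0.49 points against loci over 150 and under 1000 bp. The call at 8 libraries was lost under the replicate block, where 4.89 points had p = 0.125 by an exact test that can go no lower. The count of features called, 246, became 638 with the replicate block, 4758 with values as deposited and 142 with quantile normalization. With at least 2 libraries of each fraction, chosen after seeing the data, it was 126, with the block 130, and as deposited 4078. The block could change no call of the per-library measures. None was called without it, and an exact test over 4 pairs can go no lower than p = 0.125. With 1 library left out at a time, the number of loci differed by -538 to 411, the log2 median FPKM by -0.93 to 1.08, the share of summed FPKM by -11.1 to 19.3 points, the share in an FBgn entry by -6.06 to -3.72 points, and the median length by -2.25 to 8.42 bp. The upper end for number and log2 FPKM and the lower end for length were without supernatant 4. Short against long loci differed by 4.50 to 5.38 points, and 79 to 180 features were called. The cause was not tested. A ratio of short loci to hosts over regions in all 8 libraries, as planned, could not be computed, since there were none. With a median of 13 fragments behind a locus, depth limits what a region can show.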
